A study of Saccharomyces cerevisiae and Neurospora crassa and Schizosaccharomyces pombe with 13 samples.

Results

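Conidia are the asexual spores by which the filamentous fungus Neurospora crassa spreads. Aerial hyphae grow up from the mycelium, bud into chains and break into single spores, a programme called conidiation. The gene fl (fluffy) encodes a transcription factor with a binuclear zinc cluster that is needed for the budding. The gene eas (easily wettable) encodes a hydrophobin, a small secreted protein that assembles into the water-repellent rodlet layer on the spore surface. The genes con-6, con-8 and con-10 were isolated through transcripts that accumulate during conidiation and encode small proteins.

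These 5 genes were examined out of 9730 in the deposited gene annotation of N. crassa, and were chosen by identifier: con-6 (NCU08769), con-8 (NCU09235), con-10 (NCU07325), eas (NCU08457) and fl (NCU08726). All 5 were found. The annotation holds identifiers without gene names, so the pairing of names with identifiers comes from the list of chosen genes and was not tested here. The study made nucleosome footprints by MNase-seq, in which micrococcal nuclease cuts the DNA between nucleosomes, from N. crassa and from 2 yeasts. Its N. crassa group has 2 libraries, labelled WT with no further strain name, both made with the rapid protocol from germinated conidia. Per the labels' protocols these conidia had been kept for 3.5 h in Vogel's solution with 1.5% sucrose until more than 70% had germinated, and were crosslinked with 1% formaldehyde for 10 min. Footprints and read depth were not analysed here, so the values below describe gene models and not chromatin. No value of spread exists for a single gene model, and no test was run on 5 genes chosen by name.

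The 5 genes lie on 4 of the 7 sequences of the annotation, which are referred to by the numbers 1 to 7 in their names. Positions are those of the NC12 annotation, counted from 1. The con-6 gene occupies 5205042 to 5205927 on the plus strand of sequence 3. The con-8 gene occupies 9463799 to 9465488 on the minus strand of sequence 1, and con-10 occupies 4364944 to 4365763 on the minus strand of sequence 4. Sequence 2 carries both eas, at 3570905 to 3572798 on the plus strand, and fl, at 3805777 to 3809265 on the minus strand. The regulator and the hydrophobin gene are thus on 1 sequence but not adjacent, with 232978 bp and 33 other genes between them. The con-6 gene is the 1234th of 1255 genes along its sequence, 67791 bp from the outermost annotated gene, and the other 4 lie 306681 bp or more from it.

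The coding regions fell into 4 short ones and 1 long one. Coding length, without the stop codon, was 258 bp (86 codons) for con-10, 279 bp (93 codons) for con-6, 324 bp (108 codons) for eas and 528 bp (176 codons) for con-8. The regulator fl had 2376 bp (792 codons). The median over the 5 genes was 324 bp, against 1260 bp over all genes (quartiles 750 and 1932 bp). A coding length under 600 bp, a limit set after the values were seen, was found in 4 of the 5 genes and in 18.3% of all genes.

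**Figure D1:**
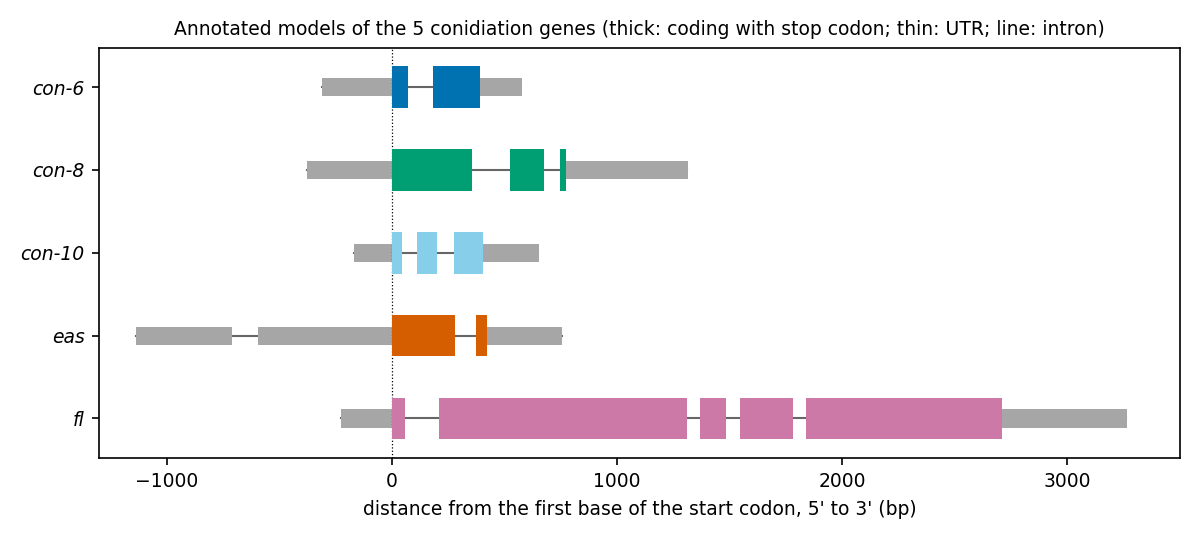
Annotated models of con-6, con-8, con-10, eas and fl, to scale and aligned at the first base of the start codon (x axis, bp); thick blocks are coding with the stop codon, thin blocks are UTRs and lines are introns. The 4 genes of small proteins have coding lengths of 258 to 528 bp, against 2376 bp for fl, and eas has a 5' UTR of 1021 bp broken by an intron.

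To place each gene among all genes, its percentile was taken as the share of genes with a lower value plus 0.5 of the ties. It was also computed on each of the 7 sequences, and the SD over them describes how much the sequences differ, not an error of measurement. In coding length con-10 stood at percentile 1.84 ± 0.539, con-6 at 2.61 ± 0.591 and eas at 5.00 ± 0.631 (SD, n = 7 sequences). The differences between neighbours in this order are 21 and 45 bp. The con-8 gene stood at percentile 15.3 ± 1.32 and fl at 83.9 ± 1.22. Only 176 of the 9730 genes had a shorter coding region than con-10, and 1559 had a longer one than fl.

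Untranslated regions (UTRs), the transcribed parts outside the coding region, were annotated at both ends of all 5 genes and of 75.7% of all genes. With 5 genes, counts near such a background share are given as a description, and no difference is read from them. In 4 of the 5, con-6, con-8, con-10 and eas, the UTRs together were longer than the coding region, which holds for 19.7% of all genes. UTRs made up 80.6% of the exonic bases of eas, 63.6% of con-6, 63.3% of con-8, 61.4% of con-10 and 24.6% of fl. The median over the 5 genes was 63.3%, against 28.8% over all genes.

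A short coding region raises this share by itself. In the lowest quartile of coding length (72 to 750 bp, 2433 genes), which holds con-6, con-8, con-10 and eas, UTRs outweighed coding bases in 48.5% of genes. The median UTR share there was 48.9%. Among all genes, the UTR share put con-6 at percentile 91.9, con-8 at 91.6 and con-10 at 89.9, and within that quartile they stood at 73.1, 72.4 and 68.5. The eas gene remained near the top, at percentile 99.2 among all genes and 96.7 within the quartile. Within the quartile con-6 and con-10 stood at percentiles 10.4 and 7.38 of coding length, so length was matched only in part. Of the 260 other genes with a coding region as short as con-6 or shorter, 148 had as high a UTR share or higher. For con-10 this held for 126 of 182, for con-8 for 512 of 1497 and for eas for 48 of 495. Among genes as short, con-6 and con-10 thus lay below the middle, and con-8 and eas above it.

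The 5' UTRs, which separate the annotated transcript start from the start codon, varied widely among the 5 genes. Their exonic length was 1021 bp in eas, 376 bp in con-8, 309 bp in con-6, 225 bp in fl and 168 bp in con-10. The median was 309 bp, against 237 bp over all genes with a missing UTR counted as 0 and 320 bp over the 7657 genes with an annotated 5' UTR. The 5 genes thus had a median above that of all genes and below that of genes with a 5' UTR. The eas 5' UTR stood apart from the other 4, at percentile 95.6 ± 0.736 (SD, n = 7 sequences). Those of con-8 and con-6 stood at 67.0 ± 2.30 and 59.4 ± 2.78, and those of fl and con-10 at 48.3 ± 3.25 and 39.4 ± 3.34. Among genes with an annotated 5' UTR alone, eas stood at 94.4, con-8 at 58.1, con-6 at 48.4, fl at 34.2 and con-10 at 23.0. Within their coding-length quartile, eas stood at 98.3, con-8 at 81.6, con-6 at 74.9 and con-10 at 55.5, and fl in its own at 34.2. The high place of eas was found in each of these comparisons. The fl gene lay near the middle among all genes, where its percentile reached 53.4 on the highest sequence, and below the middle in the other comparisons. The con-6 and con-10 genes lay above or below the middle depending on the genes they were set against.

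The hydrophobin gene eas combined a short coding region with a long leader. Its 5' UTR was 3.15 times as long as its coding region, and only 22 genes of the 9730 had a higher ratio. In con-6 the ratio was 1.11, in con-8 0.712, in con-10 0.651 and in fl 0.0947, against a median of 0.176 over all genes. In the lowest quartile of coding length the median ratio was 0.289. Among all genes eas stood at percentile 99.8, con-6 at 96.4, con-8 at 91.1 and con-10 at 89.2. Within that quartile they stood at 99.2, 89.0, 77.3 and 74.1, with coding length matched only in part. A 5' UTR longer than the coding region was annotated in 2 of the 5 genes, eas and con-6, and in 4.55% of all genes. A 5' UTR over 1000 bp was annotated for eas alone among the 5, and for 4.69% of all genes. Besides eas, 495 genes had a coding region as short or shorter and 425 had a 5' UTR as long or longer, and 5 genes had both.

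**Figure D2:**
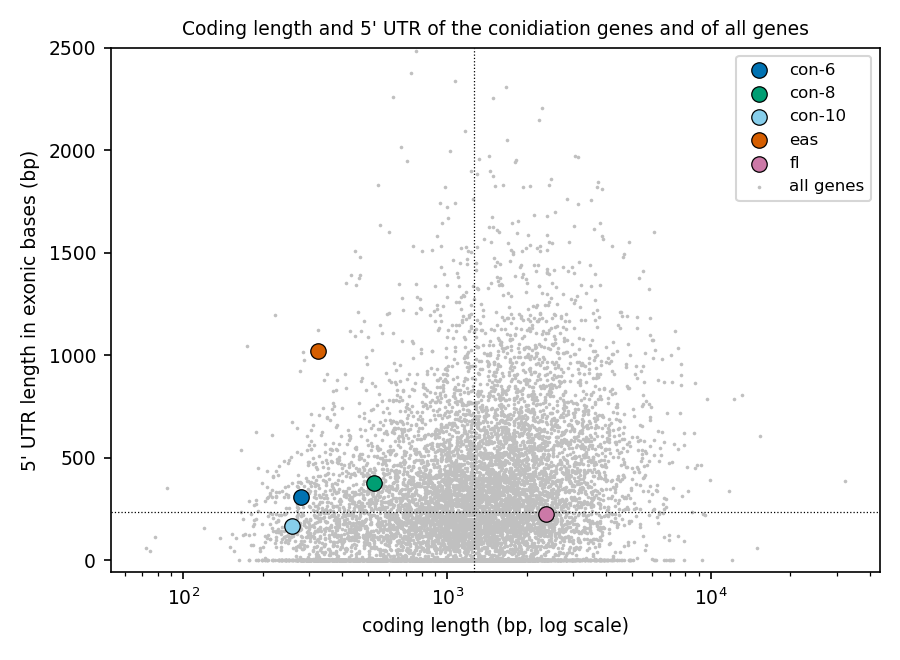
Coding length (x axis, bp, log scale) against 5' UTR length in exonic bases (y axis, bp) for the 5 conidiation genes (large points) and all 9730 genes (grey); dotted lines mark the medians of all genes, 1260 and 237 bp, and 11 genes with a 5' UTR above 2500 bp lie outside the axis. The eas point, at 324 and 1021 bp, lies above the other 4, whose 5' UTRs run from 168 to 376 bp.

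The 3' UTRs were less spread out over the 5 genes, a contrast that rests on eas. Without eas, the 5' UTRs ran from 168 to 376 bp and the 3' UTRs from 184 to 553 bp. The 3' UTRs measured 553 bp in fl, 541 bp in con-8, 335 bp in eas, 247 bp in con-10 and 184 bp in con-6. Their median was 335 bp, against 280 bp over all genes with missing UTRs counted as 0. Over the 7789 genes with an annotated 3' UTR the median was 350 bp. The fl and con-8 values differ by 12 bp and stood at percentiles 80.0 ± 1.98 and 79.1 ± 2.14. The con-6 gene had the shortest 3' UTR of the 5, at percentile 35.1 ± 3.54. Among genes with an annotated 3' UTR alone, fl and con-8 remained in the upper part at 75.0 and 73.9, eas stood just below the middle at 47.4, and con-10 and con-6 stood at 30.9 and 18.9. The longer UTR was the 5' one in con-6 and eas and the 3' one in con-8, con-10 and fl.

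Each of the 5 genes had 1 annotated transcript, as did 90.8% of all genes, so the choice of transcript did not bear on their values. All 5 contained an intron, against 81.6% of all genes, and 4 of the 5, all but con-6, had 2 or more introns, against 47.5%. The con-6 gene had 2 exons, con-8, con-10 and eas had 3 each and fl had 5. Among the 182 other genes with a coding region as short as that of con-10 or shorter, 81 had 3 or more exons. The 5 exons of fl put it at percentile 91.8 ± 0.745.

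The 11 introns of the 5 genes were of ordinary length, with a median of 74 bp against 75 bp for the 16983 introns of all genes. They ran from 60 to 170 bp. Of the 11, 9 (81.8%) were under 150 bp, roughly the DNA of a nucleosome core, against 83.4% of all introns. All introns were under 150 bp in 3 of the 5 genes, con-6, con-10 and eas, and in 71.6% of all genes with introns. The longest was the first intron of con-8 (170 bp, percentile 86.0 among all introns), followed by that of fl (150 bp, 83.5), of eas (117 bp, 76.4) and of con-6 (111 bp, 74.6). That of con-10 was 70 bp, at percentile 41.6.

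Where a gene had several introns, the first was the longest in con-8, eas and fl, and con-10 was the exception. The later introns measured 72 bp in con-8, 94 bp in eas and 60, 62 and 60 bp in fl. In con-10 the second intron, at 74 bp, was 4 bp longer than the first. Over all genes the median was 82 bp for first introns and 71 bp for later ones. In the 5 genes it was 117 bp for the 5 first introns and 67 bp for the 6 later ones.

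The first intron of eas, from 3571331 to 3571447, lies in the 5' UTR. Such an intron was annotated in 1 of the 5 genes and in 10.4% of all genes. The first exon of eas, 426 bp, was therefore entirely untranslated, and its second exon of 874 bp held 595 further 5' UTR bases and 279 coding bases. Along the DNA the start codon of eas lay 1138 bp after the annotated start. At 117 bp this intron was close to the 101 bp median of the 1154 introns of 5' UTRs.

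The other 10 introns interrupt coding regions, at different places. In fl the first intron follows 60 coding bases, 2.53% of the coding region, in con-10 it follows 44 bases, 17.1%, and in con-6 70 bases, 25.1%. In con-8 the first coding intron follows 357 bases, 67.6%, and in eas 279 bases, 86.1%, against a median of 196 bases and 17.3% over all genes with coding introns. The last coding exons of con-8 and eas were short, with 22 and 45 coding bases, percentiles 2.41 and 6.21 among the 7564 genes with a coding intron (median 457.5 bases). After the last intron fl had 868 coding bases, con-6 had 209 and con-10 had 126, at percentiles 69.6, 30.0 and 18.5. This number cannot exceed the coding length. The whole coding regions of con-6, con-10 and eas are shorter than the median of 457.5 bases, so their places below the middle were fixed by length.

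Of the 10 coding introns, 4 fell between codons (phase 0), 2 after the first base of a codon (phase 1) and 4 after the second (phase 2). Over all coding introns these classes held 38.8%, 34.3% and 27.0%. The intron of con-6 was in phase 1, those of con-10 in phases 2 and 0, those of con-8 in phases 0 and 2, the coding intron of eas in phase 0 and those of fl in phases 0, 2, 1 and 2.

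The stretch before the start, where a promoter would lie, was long for eas, above the median for con-8 and con-10, and below it for con-6 and fl, when genes on both strands were counted. The gap to the nearest gene upstream measured 5715 bp for eas, 1955 bp for con-8, 1555 bp for con-10, 699 bp for con-6 and 478 bp for fl. The median over the 5 was 1555 bp, against 781 bp over all genes (quartiles 316 and 1788 bp). By percentile eas stood at 94.8 ± 0.669, con-8 at 77.3 ± 2.15, con-10 at 70.9 ± 2.03, con-6 at 46.6 ± 2.53 and fl at 36.1 ± 3.58 (SD, n = 7 sequences). No other gene lay within 1000 bp before the start in 3 of the 5, con-8, con-10 and eas, against 42.4% of all genes. With a window of 2000 bp the count was 1 of 5, eas, against 22.2% of all genes, and between coding spans it was 5 of 5, against 70.8%. With same-strand neighbours alone the order changed: con-6 stood at percentile 82.9 (9314 bp), eas at 70.4, con-8 at 65.3 (4811 bp), con-10 at 34.7 and fl at 15.1, against a median of 2857.5 bp. The gaps of con-10, eas and fl were the same as before, since their nearest neighbours lie on the same strand.

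**Figure D3:**
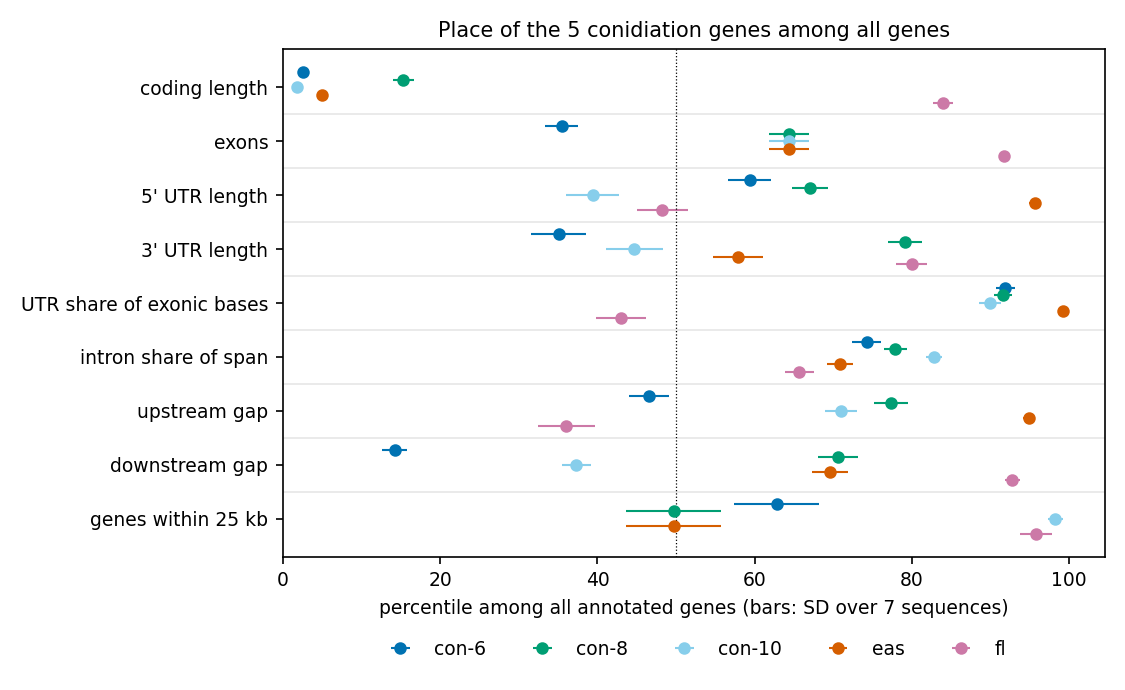
Percentile of each of the 5 genes among all annotated genes (x axis) for measures of structure and surroundings (y axis); points are genes, bars are the SD of the percentile over 7 sequences, and the dotted line is percentile 50. In coding length 4 genes sit at or below percentile 15.3 and fl at 83.9, while in upstream gap the 5 genes run from 36.1 (fl) to 94.8 (eas).

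The upstream neighbour of eas is a small gene model, NCU10730, with a coding region of 207 bp in 1 exon and no UTR. Only 58 other genes had a coding region as short or shorter. With NCU10730 set aside, an alternative chosen after its values were seen, the gap before eas would run 6438 bp to NCU08463, on the opposite strand. Counted from the start codon instead of the annotated start, 6853 bp separated eas from NCU10730, against 2331 bp for con-8, 1723 bp for con-10, 1008 bp for con-6 and 703 bp for fl, each to its own neighbour. The median over all genes was 1137 bp. Besides eas, 501 genes had a gap as long or longer and 425 had a 5' UTR as long or longer. Both were found in 47 genes, and 2 of these also had a coding region as short. The limits are the values of eas itself, so the counts were bound to be small, and no rarity of the combination is read from them.

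The short gap of fl depended on the UTR of its neighbour. The gene upstream of fl, NCU08727, lies on the same strand with its end towards fl, and has 2 transcripts, 360 coding bases and 917 bases of 3' UTR. Measured between coding spans, 1678 bp separated NCU08727 from fl, at percentile 57.0, against 478 bp and percentile 36.1 between annotated spans. For con-6 the percentile changed the other way, to 34.2 with 1103 bp between coding spans. For con-8, con-10 and eas the gaps between coding spans were 2720, 1723 and 6853 bp, at percentiles 77.4, 58.1 and 94.9.

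Upstream neighbours lay on the same strand for 3 of the 5, con-10, eas and fl, against 44.8% of all genes, and on the opposite strand, with the starts facing each other, for con-6 and con-8. The con-10 gene follows NCU07324, which has no annotated UTR, so the gap of 1555 bp ends at a coding region. The con-8 gene faces NCU09233 across 1955 bp, against a median of 758 bp for genes with such a divergent neighbour. The con-6 gene faces NCU08770 across 699 bp, close to that median.

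NCU08770 and con-6 have the same coding length, 279 bp, and 2 exons each. Of the 5372 genes with a divergent upstream neighbour, 6 had one of equal coding length and 2 had one of equal coding length and exon number. These 2 are con-6 and NCU08770 themselves. This pair was singled out after its values were seen. The models differ in other respects: the intron of con-6 measured 111 bp and follows 70 coding bases, and that of NCU08770 measured 107 bp and follows 157, both in phase 1. The 5' UTRs were 309 bp in con-6 and 95 bp in NCU08770. Their sequences were not analysed here.

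**Figure D4:**
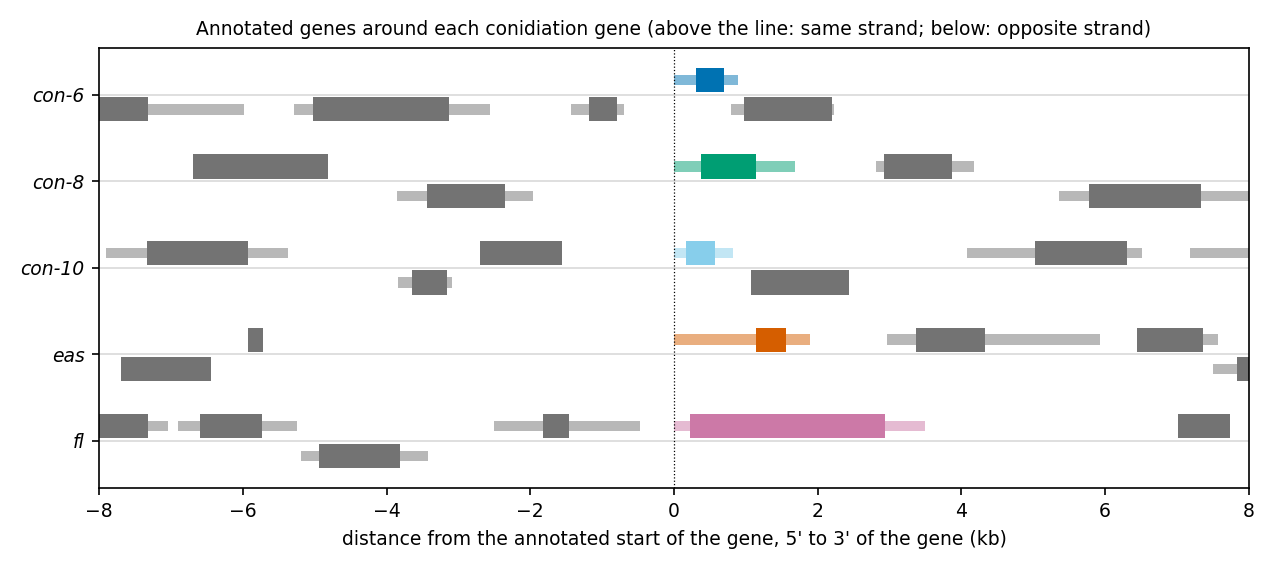
Annotated genes within 8 kb of the start of each of the 5 genes (x axis, kb, in the 5' to 3' direction of that gene); coloured blocks are the conidiation genes, grey blocks are other genes, thick parts span the coding region and thin parts the UTRs, and same-strand genes are drawn above the line. The 5715 bp before eas hold no annotated gene, and the end of con-6 overlaps the gene that faces it.

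Downstream of the 5 genes the spacing ran from an overlap to a gap longer than fl itself. The 3' end of con-6 overlapped that of NCU08768, on the opposite strand, by 93 bp. An overlap with the gene downstream was found in 1 of the 5 genes and in 20.4% of all genes. The gaps after the others were 247 bp for con-10, 1070 bp for eas, 1116 bp for con-8 and 3530 bp for fl, with a median over the 5 of 1070 bp against 477 bp over all genes. The gap after fl, which ends at the single-exon gene NCU08724, stood at percentile 92.8 ± 0.925. The downstream neighbour lay on the same strand for con-8, eas and fl, 3 of the 5, against 44.8% of all genes. In the case of con-6, the coding spans of the facing genes were 278 bp apart, so the overlap lies in the UTRs. Between coding spans con-6 stood at percentile 5.70 and con-10 at 16.9, against 14.2 and 37.3 between annotated spans. With same-strand neighbours alone con-6 stood at 95.1, fl at 56.0, con-10 at 53.6, con-8 at 28.4 and eas at 27.6, so the order of the downstream gaps also depended on the strands counted.

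On a wider scale con-10 and fl lay among many genes. Within 25 kb on either side, by gene midpoints, con-10 had 19 other genes, fl 18, con-6 14, and con-8 and eas 13 each, against a median of 13 over all genes (quartiles 11 and 15). Only 88 genes had more than con-10, at percentile 98.2 ± 0.944, and fl stood at 95.7 ± 2.01. For fl this went together with a gap of 3530 bp on 1 side. The 2 genes with the longest stretches before their start codons, eas and con-8, both stood at percentile 49.7 ± 6.04.

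In structure, each of the 5 genes was set against the other 4 and against all genes. Likeness was measured as the distance between genes over the percentiles of 5 values: coding length, both UTR lengths, exon number and upstream gap. The nearest of 4 genes will mostly be nearer than the median gene, whichever genes are taken. Coding length, by which 4 of the 5 are short, is itself among the values. The distances are therefore given as a description, and no grouping is read from them. The con-8 and eas genes were 41.1 percentile points apart, against a median distance to the 9724 other genes of 85.1 from con-8 and 102 from eas. The con-6 and con-10 genes were 43.8 apart, against medians of 79.2 from con-6 and 82.5 from con-10. For fl the nearest of the other 4, con-8, was 86.7 away, against a median of 86.6. Genes outside the list were nearer still: 84 of the 9724 were nearer to eas than con-8 was, and 415 nearer to con-8 than eas was. Likewise 311 were nearer to con-10 than con-6 was, and 419 nearer to con-6 than con-10 was. The genes most like them in the whole annotation were NCU06682 for con-10 (distance 5.07), NCU02599 for con-8 (6.27), NCU01765 for fl (7.96), NCU16615 for con-6 (12.6) and NCU16857 for eas (15.7). The match for eas, on sequence 4, had 399 coding bases in 3 exons, 744 bases of 5' UTR and an upstream gap of 7337 bp.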

How the data were processed

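The deposited annotation of N. crassa gives the first and last base of exons, coding segments and start and stop codons. Per the source field, the authors deposited NC12 gene calls. The file name mentions strain OR74A and calls the transcripts fixed, without saying how. The submitters' processing notes name CASAVA and Bowtie2 for the reads. The file carries no read depth, count or score, so no limit of depth applies.

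Records were joined into 10785 transcripts and 9730 genes. A gene with several transcripts was represented by the longest in exonic bases. UTRs are exonic bases before the start codon and after the stop codon. Gaps run from a gene's outermost base to the nearest other gene on that side, on either strand, and are below 0 where spans overlap. The genes named are the 5 members, their nearest neighbours and, per member, the gene most like it; NCU08463 was added after its values were seen. The members and lists were chosen with earlier results of these data known. A list of further conidiation genes, to be matched by symbol, was not used, because the table of symbols covers Saccharomyces cerevisiae. No N. crassa genome was used, so no sequences are shown.

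Calculations used Python 3.11.15, NumPy 2.4.6, pandas 2.3.3 and matplotlib 3.10.9. In a check with simulated gene models, each value that was compared was recovered for 1400 of 1400 genes. Quantities outside that comparison were not tested.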

Additional observations from a re-analysis of the deposited data

How the results depend on the processing

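No paired analysis was possible because the annotation belongs to no library and no test was run. Alternatives were run for 6 counts over the 5 genes: those below the median coding length, those above the median of either UTR or of the upstream gap, those with more UTR than coding bases and those with a clear start. They held within 1.5 times but for 2 values of the last. That limit is wide for 5 genes. The counts above the median 5' UTR and above the median 3' UTR were 3 of 5 each. Both fell to 2 of 5 among genes with that UTR annotated, and rose to 4 of 5 within the coding-length quartile. Starts without another gene in the 1000 bp before them numbered 3 of 5, against 1 with a window of 2000 bp (22.2% of all genes) and 5 between coding spans (70.8%). Leaving out 1 gene at a time moved the percentile of their median from 5.00 to between 3.66 and 10.3 for coding length and from 59.4 to between 53.9 and 63.5 for 5' UTR length. It moved it from 57.9 to between 51.7 and 70.4 for 3' UTR length and from 70.9 to between 61.4 and 74.4 for upstream gap, so with 5 genes a median describes little more than its middle member. Of 462 alternatives for the percentiles of single genes and introns, 384 moved them by no more than 1 SD over sequences. These include all 245 that left out a sequence, which keeps most of the genes compared with and so could move a percentile only a little. The other 78 mostly change the genes compared with: those of the same coding-length quartile, sequence or exon number, those with an annotated UTR, or same-strand neighbours alone. An annotation of 1 genome has no replicates, and transcript ends were not tested against transcript data here.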
